A study of Bos taurus with 8 samples.

Results

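The platelet-derived growth factor (PDGF) genes of the bovine testis comprised the 4 ligand genes PDGFA, PDGFB, PDGFC and PDGFD and the 2 receptor genes PDGFRA and PDGFRB. They were taken by gene symbol from a table of 30983 genes, in which all 6 were present, and all 6 were among the 19972 genes with enough counts to be tested. The tissue was testicular lobules of Chinese Red Steppes cattle, from 24-month-old adult bulls at slaughter (mature, M) and from 1-day-old calves at castration (immature, I), with 3 animals per age and 1 mRNA library per animal. Collection at slaughter or at castration and the age of the animals cannot be told apart. Small RNA was sequenced from 1 pool of 3 animals at each age.

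PDGF chains are secreted and join into dimers, which draw receptor chains together on the surface of a responding cell and switch on their tyrosine kinase domains. The alpha receptor (PDGFRA) binds the A, B and C chains, and the beta receptor (PDGFRB) binds mainly the B and D chains. In the mouse testis, PDGF-A comes from the seminiferous tubules and acts on alpha receptor cells of the interstitium, and mice without Pdgfa fail to form adult Leydig cells, the cells that make testosterone. The beta receptor marks pericytes and other mural cells of vessels, and in newborn rats PDGF drives the division of gonocytes, the early germ cells.

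All 6 PDGF genes were lower in mature testes than in immature testes. PDGFA fell most, by 3.93 on the log2 scale, followed by PDGFRB, PDGFC, PDGFB, PDGFRA and PDGFD, which fell by 1.74. By edgeR's quasi-likelihood test with Benjamini-Hochberg adjustment over all tested genes, 6 of 6 were called lower (adjusted p under 0.05 and a log2 change beyond 1), while 30.4% of all tested genes were called lower. None was called higher, a call that 31.7% of tested genes received. In each of the 6 genes every mature library lay below every immature library, as it did in 40.9% of tested genes. The median log2 fold change (mature over immature) of the 6 genes was −2.42, beside −0.04 over all tested genes and −2.05 over the genes called lower, so the direction is one that a large share of genes took. The libraries held between 14139087 and 15846257 counts, and levels are given as CPM, which are counts per 1000000 counts of a library after TMM scaling. The transcript lengths behind the counts were not used here, so levels are compared between ages for each gene and not between genes. In tissue made of many cell types, fewer cells of a type and less RNA per cell cannot be told apart.

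**Figure D1:**
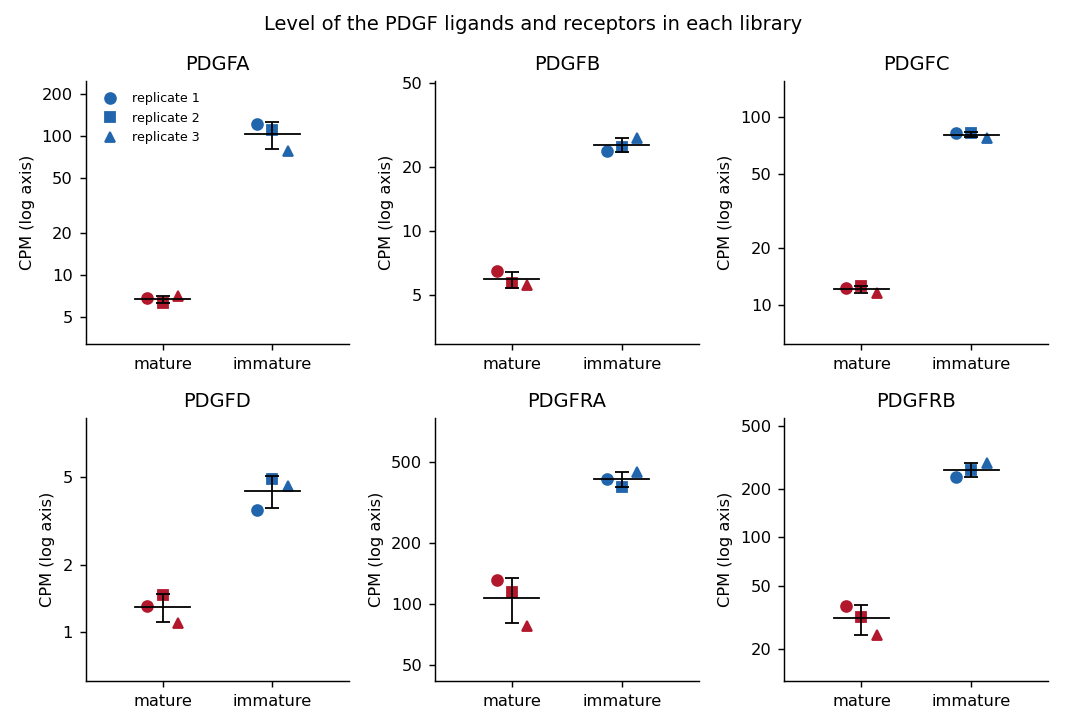
Level of each PDGF ligand and receptor gene in CPM (log axis) in the 3 mature and the 3 immature libraries, with the marker shape giving the replicate, the horizontal line the mean and the bar 1 SD. In all 6 panels the mature libraries lie wholly below the immature ones, with the widest gap for PDGFA (means of 6.72 and 102 CPM) and the narrowest for PDGFD (1.30 and 4.35 CPM).

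Among the ligands, PDGFA, the A chain and a ligand of the alpha receptor, was at 6.83, 6.31 and 7.03 CPM in mature replicates 1, 2 and 3, against 121, 109 and 77.3 CPM in immature replicates 1, 2 and 3. The mature libraries were close together, the immature libraries spread more, with replicate 3 lowest, and the groups stood far apart: the lowest immature value was 11.0 times the highest mature one. The means were 6.72 ± 0.375 CPM in mature and 102 ± 22.5 CPM in immature testes (SD, n = 3 each), a 15.2-fold lower level. The log2 fold change was −3.93 (SE 0.20, edgeR's quasi-likelihood test, adjusted p = 4.58e-07). Of all tested genes, 381 (1.91%) had a lower log2 fold change than PDGFA.

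PDGFC, a ligand of the alpha receptor that is secreted with a CUB domain masking its growth factor part, was at 12.2, 12.5 and 11.5 CPM in mature libraries, against 82.0, 82.0 and 77.7 CPM in immature libraries. It was the most even of the 6 genes within each age, with a coefficient of variation of 4.34% in mature and 3.08% in immature libraries, and the groups were separated by a factor of 6.19 at their nearest values. The means were 12.1 ± 0.525 CPM in mature and 80.6 ± 2.48 CPM in immature testes, and the log2 fold change was −2.74 (SE 0.12, edgeR's quasi-likelihood test, adjusted p = 2.04e-07). This is a 6.66-fold lower level in the bulls.

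PDGFB, the B chain, which binds both receptors and in vessels is made mainly by endothelial cells, was at 6.51, 5.70 and 5.59 CPM in mature libraries, against 23.9, 24.9 and 27.6 CPM in immature libraries. Both groups were tight and did not overlap. The means of 5.93 ± 0.505 CPM in mature and 25.5 ± 1.91 CPM in immature testes differed 4.28-fold, with a log2 fold change of −2.10 (SE 0.16, edgeR's quasi-likelihood test, adjusted p = 5.37e-06).

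PDGFD, a ligand of the beta receptor that like PDGFC carries a CUB domain, had the fewest counts of the 6 genes, with 21, 22 and 16 counts in mature libraries, against 53, 76 and 69 counts in immature libraries. These are 1.32, 1.48 and 1.10 CPM in mature testes, against 3.55, 4.92 and 4.57 CPM in immature testes. Immature replicate 1 lay nearest to the mature libraries and was still 2.41 times the highest of them. The means were 1.30 ± 0.187 CPM in mature and 4.35 ± 0.713 CPM in immature testes, and the log2 fold change of −1.74 had the widest error of the 6 (SE 0.29, edgeR's quasi-likelihood test, adjusted p = 0.000597). A lower log2 fold change than that of PDGFD was found in 19.6% of tested genes.

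Of the receptors, PDGFRA, which in the testis marks interstitial stromal cells and the progenitors of Leydig cells, was at 131, 114 and 77.7 CPM in mature libraries, against 415, 377 and 446 CPM in immature libraries. The mature libraries were uneven, with replicate 1 highest and replicate 3 lowest, but the groups remained 2.87-fold apart at their nearest values. The means were 108 ± 27.4 CPM in mature and 412 ± 34.6 CPM in immature testes. The level was 3.82-fold lower in mature testes, with a log2 fold change of −1.94 (SE 0.19, edgeR's quasi-likelihood test, adjusted p = 2.49e-05).

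PDGFRB, the receptor of pericytes and vascular smooth muscle, was at 37.3, 31.8 and 24.3 CPM in mature libraries, against 240, 265 and 292 CPM in immature libraries. The mature libraries stood in the same order as for PDGFRA, and the lowest immature value was 6.43 times the highest mature one. The means were 31.1 ± 6.49 CPM in mature and 265 ± 26.0 CPM in immature testes, an 8.51-fold lower level, and the log2 fold change was −3.09 (SE 0.18, edgeR's quasi-likelihood test, adjusted p = 8.84e-07). The coefficient of variation in mature libraries was 25.4% for PDGFRA and 20.8% for PDGFRB, above the 4.34% to 14.4% of the ligands.

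Because the ligands and receptors fell by different amounts, the balance between them differed with age. A ratio of counts within a library does not depend on how libraries are scaled, so 5 ratios were compared, each with an exact two-sided permutation test over libraries. With 3 libraries against 3 that test cannot give a p below 0.1, so the ratios cannot pass 0.05, and each is given with its spread. All 5 gave p = 0.1 in the exact permutation test (0.1 after adjustment over the 5). In each the mature libraries lay wholly on 1 side of the immature ones. These ratios rest on the same counts as the fold changes above and are not separate evidence. How often ratios of other gene pairs stand apart in this way was not computed.

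Against the alpha receptor, PDGFA and PDGFC were scarcer in mature testes. The log2 ratio of PDGFA over PDGFRA was −4.26, −4.17 and −3.46 in mature libraries, against −1.78, −1.78 and −2.53 in immature libraries. Replicate 3 of each age lay nearest to the other age. The mean ratio was −3.96 ± 0.44 in mature and −2.03 ± 0.43 in immature libraries, a difference of −1.93, or 3.82-fold less PDGFA per PDGFRA count. For PDGFC over PDGFRA the ratio was −3.12 ± 0.34 in mature and −2.35 ± 0.16 in immature libraries, a smaller difference of −0.77. PDGFB also binds the alpha receptor, and its ratio over PDGFRA, added after the other ratios were seen, was −4.33, −4.32 and −3.79 in mature libraries, against −4.12, −3.92 and −4.01 in immature libraries. Here the groups overlapped and the difference was −0.13 (p = 0.6, exact two-sided permutation test).

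Against the beta receptor the ratios ran the other way, as PDGFRB fell further than its ligands. The log2 ratio of PDGFB over PDGFRB was −2.51, −2.47 and −2.12 in mature libraries, against −3.32, −3.41 and −3.40 in immature libraries, a difference of 1.01. The ratio of PDGFD over PDGFRB was −4.54 ± 0.22 in mature and −5.93 ± 0.17 in immature libraries, a difference of 1.39. Each count of PDGFRB was thus accompanied by more counts of its ligands in mature libraries, although both ligands were themselves lower there.

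Between the receptors, the log2 ratio of PDGFRA over PDGFRB was 1.82, 1.85 and 1.67 in mature libraries, against 0.79, 0.51 and 0.61 in immature libraries. This was the ratio with the smallest spread in mature libraries, 1.78 ± 0.09, against 0.64 ± 0.14 in immature libraries. The receptor balance therefore differed by 1.14 on the log2 scale towards the alpha receptor in mature testes.

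**Figure D2:**
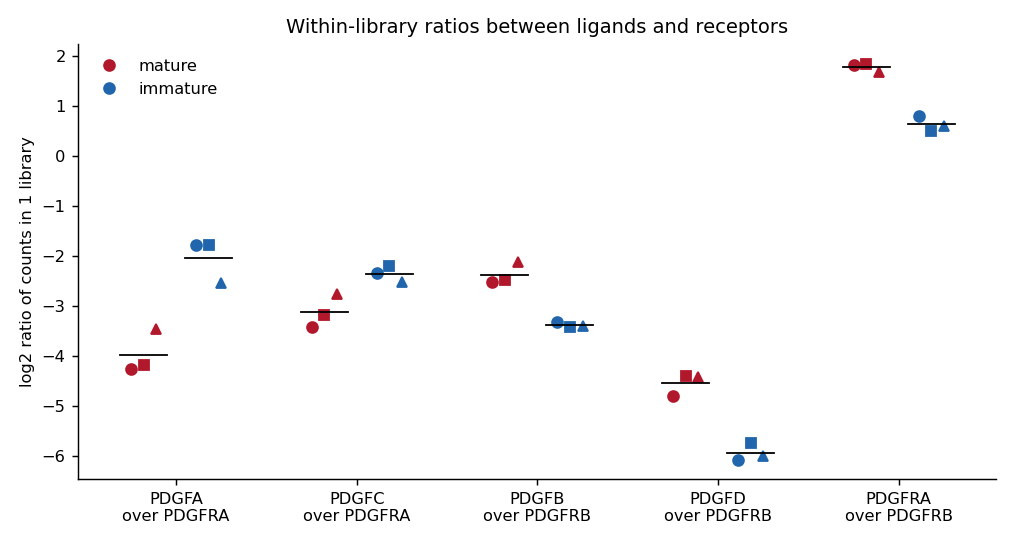
Log2 ratio of counts (each with 0.5 added) of a ligand over its receptor, or of the alpha over the beta receptor, in the 3 mature and the 3 immature libraries; the marker shape gives the replicate (circle 1, square 2, triangle 3) and the line the mean. PDGFA and PDGFC sit lower against PDGFRA in mature libraries, by 1.93 and 0.77 in size, while PDGFB and PDGFD sit higher against PDGFRB, by 1.01 and 1.39.

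PDGF chains need cutting before they can act, and other proteins outside the cell hold or clear them. Of 12 genes listed for these roles, 11 were in the table (PCSK5 was not matched) and 10 were tested. Of these, 7 (70%) were called lower and 1 (10%) higher, against 30.4% and 31.7% of all tested genes, and 2 were not called. The median log2 fold change was −1.79.

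Furin and related convertases cut the A and B chains. FURIN was at 32.0, 28.1 and 28.6 CPM in mature libraries, against 89.1, 91.3 and 87.9 CPM in immature libraries, with a log2 fold change of −1.60 (SE 0.11). PCSK6, a convertase of the same family, was the 1 gene of the list called higher. It was at 11.3, 10.4 and 11.3 CPM in mature libraries, against 2.14, 2.27 and 2.91 CPM in immature libraries. Its log2 fold change was 2.17 (SE 0.22, edgeR's quasi-likelihood test, adjusted p = 3.12e-05), so the convertases did not move as a group with PDGFA and PDGFB. PCSK7 had a log2 fold change of −0.42 and was not called (adjusted p = 0.0665, edgeR).

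The CUB domain of PDGF-C is removed by tissue plasminogen activator (PLAT), and that of PDGF-D by urokinase (PLAU) or matriptase (ST14). PLAT was at 101, 79.4 and 98.8 CPM in mature libraries, against 148, 199 and 215 CPM in immature libraries. The groups did not overlap, but the log2 fold change of −1.01 lay at the fold threshold. It ranged from −1.21 to −0.88 over 15 refits and lost the call in 8, those without mature replicate 2 or 3 or immature replicate 2 or 3 among them. PLAU was at 7.33, 7.31 and 4.69 CPM in mature libraries, against 4.82, 3.82 and 5.30 CPM in immature libraries, with overlapping groups and no call (log2 fold change 0.47, adjusted p = 0.137, edgeR). ST14 was too scarce to test, with 1, 0 and 0 counts in mature libraries, against 16, 2 and 4 counts in immature libraries.

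Among binding partners, SPARC, a matrix protein that binds the B chain, was at 799, 711 and 591 CPM in mature libraries, against 11822, 14491 and 13468 CPM in immature libraries. Its log2 fold change of −4.24 (SE 0.16) was beyond that of any PDGF gene. LRP1, an endocytic receptor that forms a complex with the beta receptor, was at 216, 205 and 170 CPM in mature libraries, against 1320, 1524 and 1837 CPM in immature libraries. Its log2 fold change, −2.99 (SE 0.16), was close to the −3.09 of PDGFRB. NRP1, a co-receptor for PDGF and VEGF chains, had a log2 fold change of −2.13 (SE 0.15), and A2M, a plasma protein that traps PDGF-B, one of −1.98 (SE 0.26). PDGFRL, a secreted relative of the receptors without a kinase domain, was at 1.50, 1.48 and 0.483 CPM in mature libraries, against 28.8, 29.7 and 30.6 CPM in immature libraries, the largest difference of the list (−4.67, SE 0.34).

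**Figure D3:**
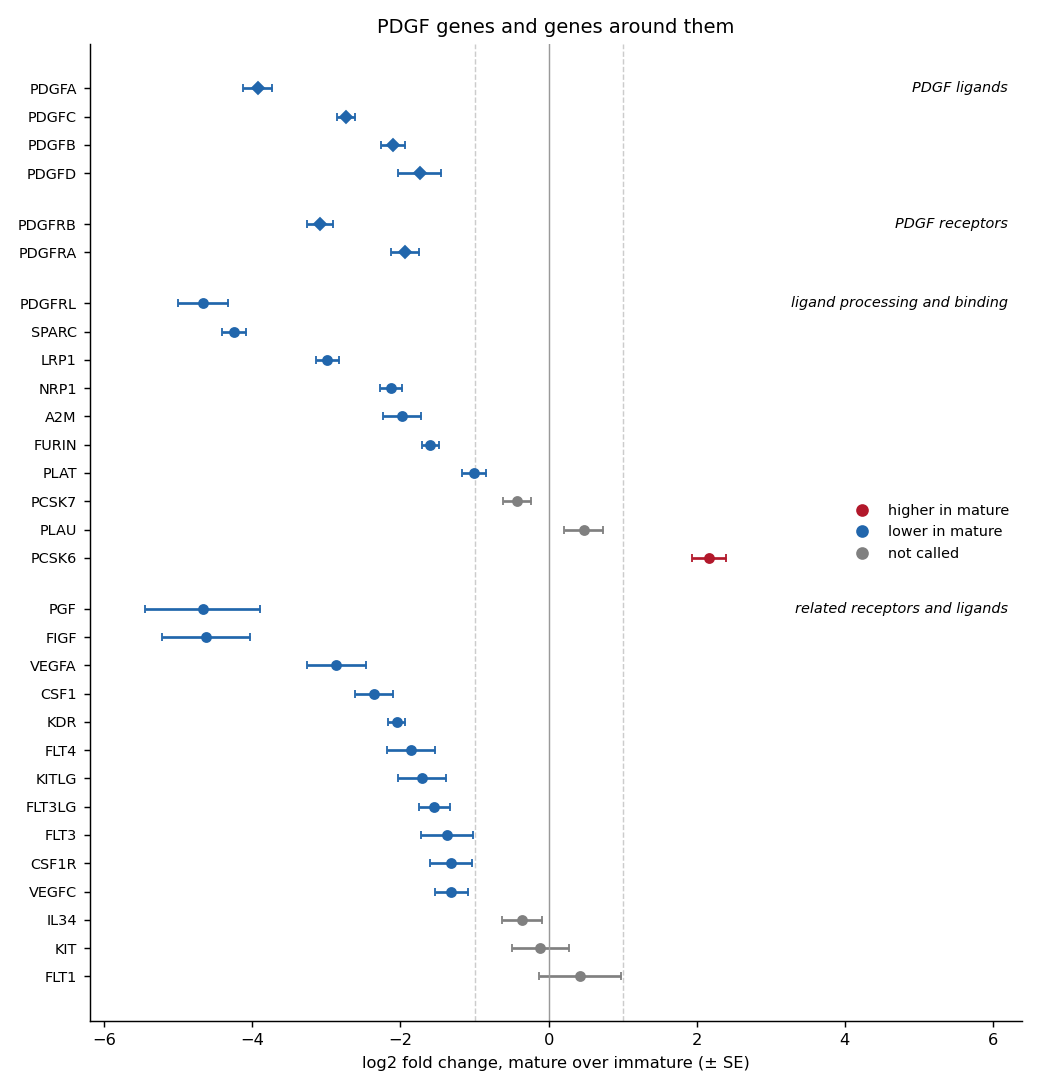
Log2 fold change, mature over immature (n = 3 each), with its standard error for the 6 PDGF genes (diamonds), 10 tested genes of ligand processing and binding and 14 tested related receptors and ligands (circles; FIGF is VEGFD); blue is called lower, red called higher and grey not called, and the dashed lines mark a log2 change of 1 either way. All 6 PDGF genes lie left of the fold threshold, between −3.93 and −1.74, and PCSK6 at 2.17 is the 1 gene called higher.

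The proteins that carry the signal from the receptors inside the cell included genes called in both directions. Of 42 listed genes, all tested, 15 (35.7%) were called lower, close to the 30.4% of all tested genes, 4 (9.52%) higher, against 31.7% of all tested genes, and 23 were not called. The median log2 fold change was −0.57. The largest falls were in PTPRJ, a phosphatase that acts on the beta receptor, with 6.76, 7.31 and 4.62 CPM in mature libraries, against 47.9, 51.6 and 49.8 CPM in immature libraries (−2.99, SE 0.19). Then followed the transcription factor STAT5A (−2.61, SE 0.17), the regulatory PI3-kinase subunits PIK3R2 (−2.26, SE 0.11) and PIK3R1 (−2.11, SE 0.21), and the Src family kinase FYN (−2.04, SE 0.17). Each of these 5 genes had every mature library below every immature library. They were picked for the largest falls, so this follows largely from the pick and cannot be set against the 40.9% of all tested genes.

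The genes called higher were CBL, NCK1, MAPK3 and PIK3CB. The adaptor NCK1 was at 117, 101 and 123 CPM in mature libraries, against 26.5, 30.1 and 31.4 CPM in immature libraries (1.95, SE 0.13). MAPK3, which encodes the kinase ERK1, was at 290, 319 and 360 CPM in mature libraries, against 94.6, 94.9 and 102 CPM in immature libraries (1.73, SE 0.11). CBL, a ubiquitin ligase that marks active receptors for breakdown, rested on few reads, with 44, 23 and 41 counts in mature libraries, against 4, 8 and 13 counts in immature libraries (2.10, SE 0.47). PIK3CB, a catalytic PI3-kinase subunit, had a log2 fold change of 1.34 (SE 0.16).

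The PDGF receptors belong to the class III receptor tyrosine kinases with KIT, CSF1R and FLT3, and the VEGF receptors are close relatives. Of 15 listed relatives and their ligands, 14 were tested. Of these, 11 (78.6%) were called lower and none higher, against 30.4% and 31.7% of all tested genes, and 3 were not called. The median log2 fold change was −1.62. The largest differences were in ligands related to PDGF in structure: PGF (−4.67, SE 0.77), VEGFD (listed as FIGF, −4.63, SE 0.59) and VEGFA (−2.87, SE 0.40). PGF was at 10, 1 and 0 counts in mature libraries, against 116, 89 and 81 counts in immature libraries, and its log2 fold change was −7.17 without mature replicate 1 and −4.08 without mature replicate 3. CSF1, the ligand of CSF1R, had a log2 fold change of −2.35 (SE 0.25) and KDR, the main VEGF receptor of endothelium, one of −2.05 (SE 0.12). The genes not called, picked out here after their values were seen, were KIT (−0.11, SE 0.38), IL34 (−0.36, SE 0.27) and FLT1 (0.43, SE 0.56). Without immature replicate 3, FLT1 was called higher in mature testes at 1.30 (adjusted p = 0.00423, edgeR). KIT, the germ cell member of the receptor class, was at 2.32, 2.35 and 3.10 CPM in mature libraries, against 1.94, 2.07 and 4.37 CPM in immature libraries, with overlapping groups, unlike PDGFRA and PDGFRB.

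The tissue carried the markers of a testis at both ages and differed between them in germ cells. All 10 listed spermatid markers were higher in mature testes (median log2 fold change 10.93), and their summed level was 13210 to 20137 CPM in mature libraries, against 85.0 to 88.8 CPM in immature libraries. The somatic markers mostly fell, as the PDGF genes did, and their part in the PDGF results was not tested. Below, PDGFA, PDGFRA, PDGFRB and PDGFB are each set beside marker lists, but the fold changes do not single out these pairings. PDGFA (−3.93) lay nearer the interstitial mesenchyme median (−4.55) than the Sertoli median (−2.28). PDGFRA (−1.94) lay nearer the Sertoli median than the interstitial mesenchyme median. The calls in each marker list stand beside 30.4% of all tested genes called lower and 31.7% called higher.

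PDGFA was set beside markers of Sertoli cells, of which 8 of 10 were called lower and 2 higher, with a median of −2.28. Their summed level was 1624 to 1808 CPM in mature libraries, against 9957 to 13338 CPM in immature libraries. The extremes of that list were AMH, the hormone of immature Sertoli cells (−7.92, SE 0.33), INHA, an inhibin subunit (−4.53, SE 0.22), and CLDN11, a tight junction protein that was higher in mature testes (3.04, SE 0.78, and 4.30 without immature replicate 1). As a percent of the summed Sertoli markers, PDGFA was at 0.420, 0.349 and 0.428 in mature libraries, against 1.08, 0.820 and 0.776 in immature libraries. It was thus lower relative to that sum, of which CLU made up most in mature libraries (1137 to 1254 CPM). AMH and INHA fell further than PDGFA, so PDGFA was not lower relative to each marker. This percentage and the others of marker sums were chosen after the values were seen and are given with no test.

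PDGFRA was set beside markers of interstitial mesenchyme, all 10 of which were called lower, with a median of −4.55. Their summed level was 289 to 717 CPM in mature libraries, against 10073 to 22759 CPM in immature libraries. The collagen genes COL1A1 (−5.34, SE 0.61) and COL3A1 (−5.20, SE 0.56) and the growth regulator DLK1 (−5.15, SE 0.35) fell most. Against that sum PDGFRA was higher in mature libraries, at 18.3%, 23.9% and 26.9%, than in immature libraries, at 2.98%, 3.74% and 1.96%. Leydig cell markers moved less: of 8, 2 were called lower (HSD3B1 and LHCGR), 1 higher (HSD17B3) and 5 were not called, though CYP11A1 and CYP17A1 were called lower without mature replicate 1. Their summed level of 1561 to 2907 CPM in mature libraries overlapped the 1829 to 3012 CPM of immature libraries. Against the Leydig sum PDGFRA was lower in mature libraries, at 4.52%, 4.98% and 4.98%, than in immature libraries, at 13.8%, 20.6% and 15.8%.

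PDGFRB was set beside pericyte markers, of which 6 of 7 tested were called lower (median −2.36). Their sum was 49.6 to 73.6 CPM in mature libraries, against 338 to 394 CPM in immature libraries. CSPG4, known as NG2 (−3.61, SE 0.29), NOTCH3 (−2.93, SE 0.26) and the potassium channel gene KCNJ8 (−2.73, SE 0.22) fell most. Against the pericyte sum PDGFRB was at 50.6%, 47.7% and 49.1% in mature libraries, against 64.9%, 67.2% and 86.3% in immature libraries. Peritubular and smooth muscle markers were called lower in 6 of 8 cases (median −2.35), with a sum of 675 to 692 CPM in mature libraries, against 1781 to 3116 CPM in immature libraries. Among those called were ACTG2 (−3.08, SE 0.63, and −2.14 without immature replicate 1), CNN1 (−2.65, SE 0.26) and TAGLN (−2.62, SE 0.15), all of the contractile apparatus.

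PDGFB was set beside endothelial markers, of which 9 of 10 were called lower (median −2.70). Their sum was 83.1 to 98.8 CPM in mature libraries, against 406 to 597 CPM in immature libraries. CLDN5 (−3.52, SE 0.29), PECAM1 (−3.48, SE 0.43, and −2.88 without immature replicate 3) and ROBO4 (−3.28, SE 0.18) fell most. Against that sum PDGFB was at 6.59%, 6.27% and 6.72% in mature libraries and 5.89%, 4.79% and 4.62% in immature libraries. Its share of the sum was thus higher in mature libraries, unlike that of PDGFA in the Sertoli sum. No such share was computed for PDGFC or PDGFD.

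Platelets are the cells that gave PDGF its name. The platelet chemokines PF4 and PPBP were at 0 counts in every mature library and at no more than 20 and 2 counts in any immature library. Of 7 platelet markers 2 were tested, ITGA2B higher (2.99, SE 0.15) and GP9 lower (−1.13, SE 0.25), and the sum of 96.1 to 119 CPM in mature libraries, against 16.7 to 21.1 CPM in immature libraries, was nearly all ITGA2B. Leukocyte markers were lower in 6 of 8 tested genes and higher in 2, CD14 and AIF1, with summed levels of 207 to 229 CPM in mature libraries, against 136 to 217 CPM in immature libraries. CD14 and AIF1 made up 75.7% to 84.4% of that sum in mature libraries, against 9.64% to 12.3% in immature libraries. Germ cell markers of spermatogonia and gonocytes were higher in 4 and lower in 1 of 8 tested genes, with sums of 627 to 695 CPM in mature libraries, against 137 to 259 CPM in immature libraries. Skeletal muscle markers summed to 11.9 to 14.4 CPM in mature libraries, against 34.0 to 42.1 CPM in immature libraries, and of 8 tested 3 were lower, while CHRNA1 was at 0 counts in every mature library.

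Some libraries stood apart within their group, and the PDGF genes only partly moved with them. Markers of epididymis and rete epithelium summed to 249 to 288 CPM in mature libraries, against 133 CPM in immature replicate 1. In immature replicates 2 and 3 the sums were 20.02 and 20.38 CPM, and of 4 tested genes 2 were higher and 2 lower. The mature sums were nearly all EPCAM (129.6 to 166.1 CPM) and DEFB119 (114.5 to 129.2 CPM). In immature replicate 1, EPCAM, KRT19 (45.2 CPM) and PAX8 (33.8 CPM) made up most of the sum. EPCAM, 1 of the 2 higher, had 49.8 CPM in immature replicate 1 and lost its call without each of the other 5 libraries in turn, while its log2 fold change was 2.94 with all libraries and 5.50 without immature replicate 1. Between 11 and 20 genes stood at over 3 times both other libraries of the same age, and at 5 CPM or more, in each mature library, against 194, 21 and 170 genes in immature replicates 1, 2 and 3. Without immature replicates 1 and 3, a choice made after these values were seen, all 6 PDGF genes were still called lower. In the mature group, the order of PDGFRA and PDGFRB (replicate 1 highest, replicate 3 lowest) was also that of the summed mesenchymal markers at 717, 478 and 289 CPM, of the Leydig markers at 2907, 2294 and 1561 CPM and of the pericyte markers at 73.6, 66.7 and 49.6 CPM. PDGFB, at 6.51, 5.70 and 5.59 CPM, and the endothelial markers, at 98.8, 91.0 and 83.1 CPM, stood in that order too. How many of all genes share that order was not computed. Spermatid markers ran the opposite way, at 13210, 17455 and 20137 CPM. None of the 4 ligands spread as widely over the mature libraries as the receptors did.

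**Figure D4:**
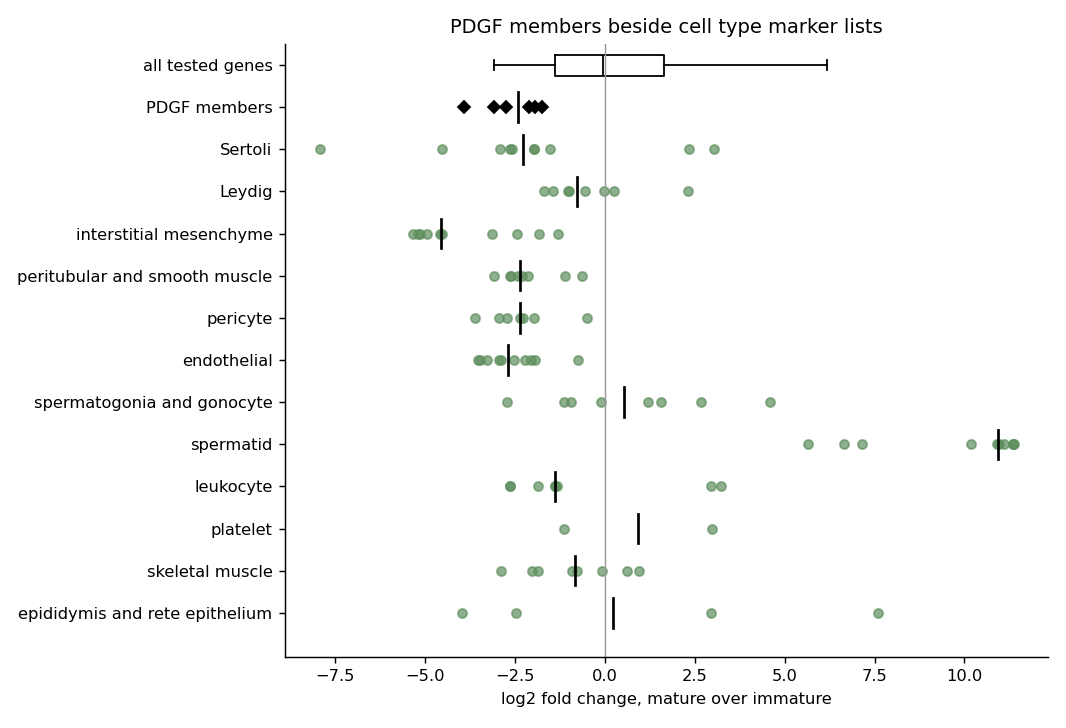
Log2 fold change, mature over immature, of the 6 PDGF genes (diamonds) and of the tested genes of each cell type marker list (circles), with vertical lines at the medians; the box at the top gives the quartiles and the whiskers the 5th and 95th percentiles of all tested genes. The PDGF genes (median −2.42) lie with the Sertoli (−2.28), peritubular and smooth muscle (−2.35), pericyte (−2.36) and endothelial (−2.70) lists. The PDGF median is right of interstitial mesenchyme (−4.55), left of Leydig (−0.77) and far from spermatid markers (10.93).

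The genes most alike to each PDGF gene were those with the smallest root mean square difference in log2 CPM (0.5 CPM added), after centring each gene over the 6 libraries, among 14922 genes. They were MAGEL2, ABCC8 and ZBED3 for PDGFA (difference 0.12 to 0.13), KCNT2, the adaptor gene SHC1 and PNRC2 for PDGFB (0.046 to 0.058), and N4BP2L1, GSTM2 and the ribosomal protein gene RPS14 for PDGFC (0.049 to 0.056). For PDGFD they were IGSF6, TIMM8A and ZFAND5 (0.072 to 0.073). For the receptors they were SLC30A2, SDC3 and ZNF316 with PDGFRA (0.071 to 0.091) and FSCN1, PLP2 and BIN1 with PDGFRB (0.054 to 0.070). SLC30A2 was at only 0.207 to 0.626 CPM in mature libraries, near the 0.5 CPM added. Its log2 fold change in edgeR was −2.93, beyond the −1.94 of PDGFRA. None of these nearest genes was another PDGF gene. The best placed was PDGFB, at rank 155 for PDGFRA, while for PDGFD the nearest other PDGF gene, PDGFB, was at rank 1997. PDGFD was at 1.10 to 1.48 CPM in mature libraries, so the 0.5 CPM added shrank its change and bears on that rank. Its nearest genes, IGSF6, TIMM8A and ZFAND5, had edgeR log2 fold changes of −1.49, −1.57 and −1.48, smaller in size than its −1.74.

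The genes next to the PDGF genes on the chromosome were looked up by name in RefSeq's annotation of assembly ARS-UCD2.0, which is not the assembly the reads were aligned to, so no coordinates are given. PDGFRB lies on chromosome 7 beside CSF1R, a receptor of the same class, which had 19.5 ± 4.10 CPM in mature and 48.6 ± 16.5 CPM in immature testes (log2 fold change −1.32, SE 0.28, edgeR's quasi-likelihood test, adjusted p = 0.00276). Both neighbours were thus lower in mature testes, PDGFRB by more. PDGFD lies on chromosome 15 beside DDI1, which went the other way, with 102 ± 11.5 CPM in mature and 0.353 ± 0.081 CPM in immature testes (8.14, SE 0.21, edgeR's quasi-likelihood test, adjusted p = 2.07e-08). PDGFA on chromosome 25, PDGFB on chromosome 5 and PDGFC on chromosome 17 each had 1 tested neighbour (LOC101904836, LOC101906018 and LOC104974614), all called lower, at −1.99, −1.72 and −2.11. Of all tested genes, 30.4% were called lower. The neighbours of PDGFRA on chromosome 6, GSX2 and LOC100296974, were too scarce to test. The sources used here give no strand setting for the count, so reads shared with an overlapping gene cannot be told apart.

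MicroRNAs bind transcripts through their seed, bases 2 to 8 from the 5′ end. Some have PDGF transcripts among their known targets: miR-34 members bind those of PDGFRA and PDGFRB in human cells, miR-140 binds that of pdgfra in zebrafish, and miR-29 binds that of PDGFC in rodent liver cells. The 7 bovine members found in the small RNA table are shown with the seed in capitals, because the seed is what members of a family share.
bta-miR-34a: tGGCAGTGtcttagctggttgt
bta-miR-34b: aGGCAGTGtaattagctgattg
bta-miR-34c: aGGCAGTGtagttagctgattg
bta-miR-140: tACCACAGggtagaaccacgga
bta-miR-29a: cTAGCACCatctgaaatcggtta
bta-miR-29b: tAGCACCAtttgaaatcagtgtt
bta-miR-29c: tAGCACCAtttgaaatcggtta
The 3 miR-34 members share a seed, as do miR-29b and miR-29c. The listed miR-29a starts 1 base earlier, so its bases 3 to 9 are the same as the seed of miR-29b and miR-29c.

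Each age had 1 pool, so these values have no replicate check, and the intervals are exact 95% intervals for counting error only. The table held 1021222 counts in the mature and 4153017 counts in the immature pool. These are only part of each library, and the part differed between the pools. Ratios are therefore given both relative to the counts of the table and relative to all clean reads, a scale that rests on 5679135 reads in the mature and 5295241 in the immature pool, derived from the bovine miRNA counts and the shares of clean reads they made up.

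The miR-34c member, which shares its seed with 34a and 34b and is known from male germ cells, had 56150 counts in the mature pool, against 751 in the immature pool. Its log2 ratio was 8.25 (8.14 to 8.35) per table count and 6.12 (6.02 to 6.23) per clean read. The miR-34b member had 2991 counts in the mature and 47 in the immature pool, with log2 ratios of 8.02 (7.60 to 8.46) and 5.89 (5.48 to 6.34). Both were higher in the mature pool on either scale, at the age at which PDGFRA and PDGFRB were lower.

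The other 5 changed sign with the scale, though for miR-34a and miR-29b the interval per clean read included 0. The miR-34a member had 28 counts in the mature and 31 in the immature pool, a log2 ratio of 1.88 (1.09 to 2.66) per table count and −0.25 (−1.04 to 0.54) per clean read. For miR-140, with 44231 counts in the mature and 133977 in the immature pool, the ratios were 0.42 (0.41 to 0.44) and −1.70 (−1.72 to −1.68). The miR-29a, miR-29b and miR-29c members had 7895, 159 and 406 counts in the mature pool, against 14558, 161 and 543 in the immature pool. Their log2 ratios were 1.14, 2.01 and 1.60 per table count. Per clean read they were −0.98 (−1.02 to −0.94), −0.12 (−0.44 to 0.21) and −0.52 (−0.71 to −0.33), so no direction can be given for them. No search for binding sites was made, and whether any of these miRNAs bears on the PDGF genes here was not tested.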

How the data were processed

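The deposited gene table holds whole-number counts for each gene in each library. The authors enriched mRNA with oligo(dT), sequenced it on a HiSeq2000, ran Fast-QC on the reads and used Hisat2 to align these to the cattle genome Btau_5.0.1. Which program counted them, on which annotation and strand setting, is not given in the sources. The deposited miRNA table holds whole-number counts per pool, from alignment to miRBase 21.0 and with BWA to the same genome. The authors' comparison tables hold signals, fold changes and FDR from EBSeq and were not used.

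All genes were fitted in R 4.3.3 with edgeR 4.0.16 (filterByExpr, TMM, robust quasi-likelihood fit and test). Of 30983 genes, 28656 had a count and 19972 were tested. A gene was called where its p, adjusted by Benjamini-Hochberg over all tested genes, was under 0.05 and its log2 fold change beyond 1 either way. Library pairs of an age differed by a chi-square per degree of freedom of 9.60 to 38.8, more than re-sequencing of 1 library would give. With 1 library per animal, p-values rest on the spread between libraries. In that spread, differences between animals and between the sampled pieces of tissue cannot be told apart. Ratios, lists and miRNA values were computed in Python 3.11.15 (numpy 2.4.6, pandas 2.3.3, scipy 1.17.1) and drawn with matplotlib 3.10.9. Alternatives were other scalings, DESeq2 1.42.0, limma-voom (limma 3.58.1), other filters, each library left out, a replicate block and no fold threshold.

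The PDGF genes and all lists were chosen with earlier results of these data known. Named are the 6 PDGF genes, every gene of ligand processing and binding except 1 that is not reported here and was left out of the list's counts, per other pathway list at most 5 called genes with the largest change and up to 3 called the other way, per cell type list at most 3 called genes and those at 0 in a group, the 3 genes most alike to each PDGF gene with a symbol not starting with LOC and at least 1 CPM in 3 libraries, and annotated neighbours. Other genes named were picked after their values were seen.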

Additional observations from a re-analysis of the deposited data

How the results depend on the processing

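Each PDGF gene was taken through 16 alternatives, which were refits except for the setting without a fold threshold. That setting reuses the main fit, so its values could not change. All 96 values stayed lower in mature testes and past both thresholds, and the largest adjusted p was 0.0049 (edgeR, PDGFD without mature replicate 1). The log2 fold changes ranged from −4.14 to −3.81 for PDGFA, −2.30 to −2.0 for PDGFB, −2.94 to −2.64 for PDGFC, −1.94 to −1.57 for PDGFD, −2.14 to −1.69 for PDGFRA and −3.29 to −2.88 for PDGFRB. Over all genes 12392 were called, and between 11803 and 15655 under the alternatives. Upper-quartile scaling shifted the median log2 fold change of all tested genes by −0.20. Without the fold threshold 36 receptor signaling genes were called instead of 19, by construction of that setting. The calls in ligand processing and binding ran from 7 to 8, and those among related receptors from 11 to 12.

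Replicate numbers are shared between the ages but name different animals, and same-numbered libraries deviated from their group means with correlations of −0.03, −0.02 and −0.01, so they were not taken as pairs. With the replicate number as a block 12319 genes were called, all 6 PDGF genes among them. The differences in within-library ratios ranged, with each library left out, from −2.19 to −1.79 for PDGFA over PDGFRA, −0.95 to −0.62 for PDGFC over PDGFRA, 0.89 to 1.08 for PDGFB over PDGFRB, 1.32 to 1.52 for PDGFD over PDGFRB and 1.08 to 1.22 for PDGFRA over PDGFRB, each with an exact permutation p of 0.2, the smallest that 2 libraries against 3 allow.

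For miRNAs, the scale of derived clean reads was added after the data were seen and changed the sign of 5 log2 ratios. These were −0.25 for miR-34a, −1.70 for miR-140, −0.98 for miR-29a, −0.12 for miR-29b and −0.52 for miR-29c. The intervals of miR-34a and miR-29b on that scale included 0. The ratios of miR-34b and miR-34c were 5.89 and 6.12 on that scale. Scaled to the bovine miRNA counts alone, those of miR-140 and miR-29a were 0.48 and 1.20. Depth limited PDGFD, with 16 to 76 counts per library, and ST14, VEGFB and miR-34a.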
